A study of Glycyrrhiza uralensis with 30 samples.

Results

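The comparison described here sets roots of *Glycyrrhiza uralensis* seedlings after 24 h in PEG against untreated control roots. It holds 6 of the 30 libraries of the series, chosen by their descriptions: 3 of underground parts at 24 h (numbered 10, 11 and 12 in their titles) and 3 of control underground parts (31, 32 and 33). *G. uralensis* is a licorice, a legume whose roots are used for their triterpene and flavonoid content. Treated seedlings stood in MS nutrient solution with polyethylene glycol 6000 at 100 g/L for 24 h; the controls were sampled at 0 h and carry distilled water as their treatment label. All are labelled as seedlings of 60 days, while the protocol speaks of 1 week in hydroponic culture. The labels list root controls at 0 h only, so PEG, medium and elapsed time cannot be told apart. Nothing in the labels ties each library to plants of its own, so p-values measure the spread between these libraries, which may be technical.

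Polyethylene glycol of high molecular weight does not readily enter plant cells and lowers the water potential of the solution around the root, which makes water harder to take up. In plants generally, roots meet such a deficit first: abscisic acid accumulates, osmolytes and protective proteins are made, ion and water transport is adjusted, and growth slows. Much of this response runs through changes in transcript levels. The files give gene identifiers without names, and no annotation was used here, so no function is assigned to any gene below. The identifiers are grouped instead by level, organ and behaviour at other times, and 4 are described singly. Known marker genes of root, leaf or nodule cells, and lists such as abscisic acid signalling or dehydrins, therefore could not be looked up.

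Levels are given as TPM, the share of a gene in the transcripts of a library after correction for gene length. In bulk roots a lower level can mean fewer cells of a type, less RNA of that gene per cell or a larger share held by other genes. These cannot be told apart. The listed genes of the 6 libraries summed to between 928931 and 958104 TPM, lowest in libraries 10 and 11, and 20247 to 20824 genes stood at 1 TPM or more. At 24 h, 4.66% to 6.26% of the listed TPM belonged to the top 10 genes of a library, against 8.04% to 14.2% in control. Read depth is unknown. On log2(TPM + 1) over the 23107 genes tested, Pearson's r was 0.876 to 0.922 between control libraries, 0.882 to 0.916 between 24 h libraries, and 0.830 to 0.881 across the groups; the lowest value within the controls was below the highest across groups. The organ label was checked with those of the tested genes that were at least 8-fold higher on this scale in shoots than in roots at 6 h. That time is outside the comparison, and genes too low in roots to be tested are left out. Those 757 genes summed to 6069 to 8731 TPM in the 6 root libraries, 5324 to 10265 TPM in the other root libraries and 188225 TPM or more in every shoot library of the series. For the libraries of 6 h the gap between organs is fixed by the choice of genes.

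After 24 h, 1037 root genes were higher than in control and 887 lower, which is 4.49% and 3.84% of the 23107 tested (limma over the 15 root libraries, Benjamini-Hochberg adjusted p under 0.05). Of the rises, 708 were at least 2-fold, 277 at least 4-fold and 101 at least 8-fold on the log2(TPM + 1) scale. Of the falls, 612, 163 and 58 reached these sizes. The median called rise was 1.30 and the median called fall -1.22 on the log2 scale, while the median over all tested genes was 0.026. In 1032 of the rises and 881 of the falls the 3 libraries of 24 h lay wholly beyond the 3 controls. The calls rest on these same libraries, so this separation is largely built into them and is a description only. Among all tested genes, 12.5% lay wholly above and 11.4% wholly below. The spread within the compared groups was of similar size, with a median SD per gene of 0.354 in control and 0.388 at 24 h (log2 scale, n = 3). It was 0.356 at 2 h, and smaller at 6 h (0.266) and 12 h (0.282). The test used a spread shared by all 15 root libraries, so the calls lean in part on groups outside the comparison.

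The lists became shorter whichever of the 6 libraries was left out, and each omission also leaves fewer libraries for the test. Leaving out control library 31 brought the 1924 calls to 1028, leaving out control library 32 to 1250, and leaving out library 10 of the 24 h roots to 1167. The other omissions gave 1501 to 1587. Without control library 31 there were 535 rises and 493 falls, 423 and 402 of them at least 2-fold. Without library 10 there were 659 rises and 508 falls, 394 of the falls at least 2-fold, and without control library 32 there were 534 falls. A fit to the 6 libraries alone called 314 rises and 231 falls, 307 and 226 of them at least 2-fold, and library weights gave 1382 falls. Rises made up 53.9% of the calls, 48.7% after quantile normalization and 50.9% after median-ratio rescaling. Falls outnumbered rises after quantile normalization (1143 to 1087) and with library weights (1382 to 1352).

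**Figure D1:**
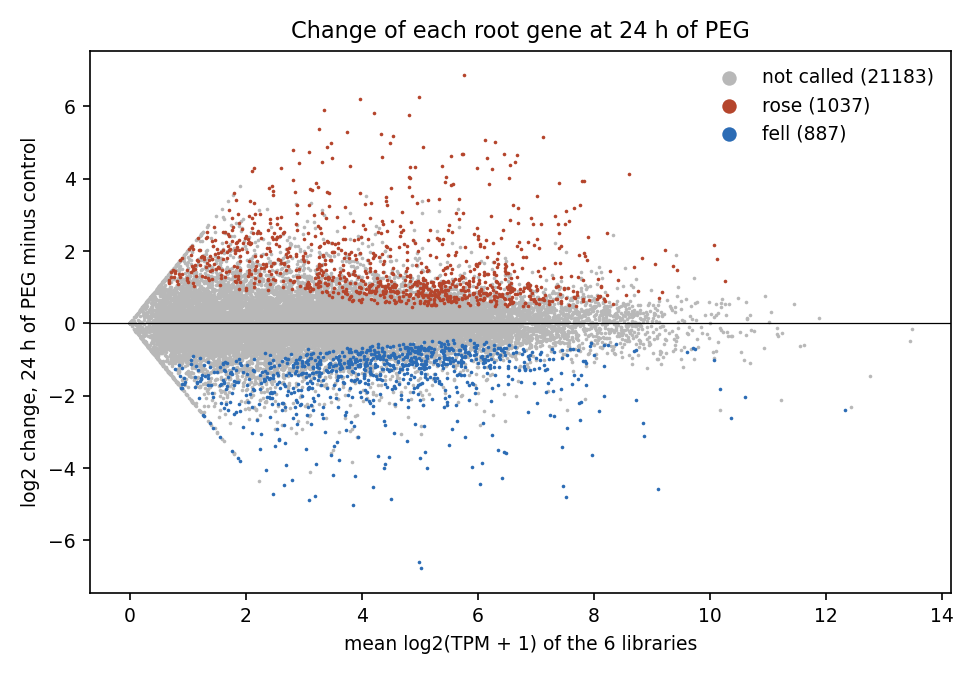
The log2 change at 24 h of PEG against control (vertical axis) is plotted for each of the 23107 tested root genes against its mean log2(TPM + 1) over the 6 libraries (horizontal axis). The 1037 genes that rose and the 887 that fell spread over nearly the whole range of levels, and the largest changes reached 6.86 upwards and -6.77 downwards.

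Together the called genes took up a different share of the RNA pool in the 2 groups. The genes that rose held 3.42%, 3.95% and 3.44% of the listed TPM in control libraries 31, 32 and 33, and 12.0%, 9.06% and 12.0% in libraries 10, 11 and 12 of 24 h. The genes that fell held 10.5%, 9.27% and 8.42% in the controls and 2.85%, 2.99% and 3.44% at 24 h. These libraries chose the genes, so the direction of both shifts is fixed by the choice and only their size is described. Library 11 was the lowest of the 24 h libraries for 491 of the 1037 rises, library 10 for 292 and library 12 for 254. Among the falls, library 10 was lowest for 429 of 887 genes, library 12 for 243 and library 11 for 215.

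Few genes went from nothing listed to a clear level. Among all 34445 genes, 26 were listed at 0 in every control and at 1 TPM or more in every 24 h library, and 17 showed the reverse. Of these, 9 and 8 passed the test. Their mean levels in the group where they were listed reached at most 40.3 TPM and 14.0 TPM, with medians of 3.72 TPM and 6.36 TPM. The values from the files hold no counts, so no detection limit can be given for a value of 0.

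Calls were more frequent among abundant genes. Genes were split by their mean over the 9 root libraries of 2, 6 and 12 h, whose levels do not enter the 24 h change. The roots of those libraries had already been in PEG. The median of the genes that rose was there above that of every control library, and the median of the genes that fell below. This can move rises into a higher class and falls into a lower class, and its part in the counts was not tested. At 100 TPM or more, 203 of 1707 genes rose (11.9%) and 98 fell (5.74%). Below 100 TPM, 834 of 21400 rose (3.90%) and 789 fell (3.69%). Between 10 and 100 TPM, 4.97% rose and 4.88% fell, and between 1 and 10 TPM 2.79% rose and 2.70% fell. Low values carry more counting error and are compressed by the pseudocount of 1, and the part of this in the lower shares was not tested. At 100 TPM or more rises outnumbered falls under every scaling tried, by 173 to 139 after quantile normalization and 185 to 97 after median-ratio rescaling. Without control library 31 the counts were 134 and 61, and with the 6 libraries alone 66 and 34.

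**Figure D2:**
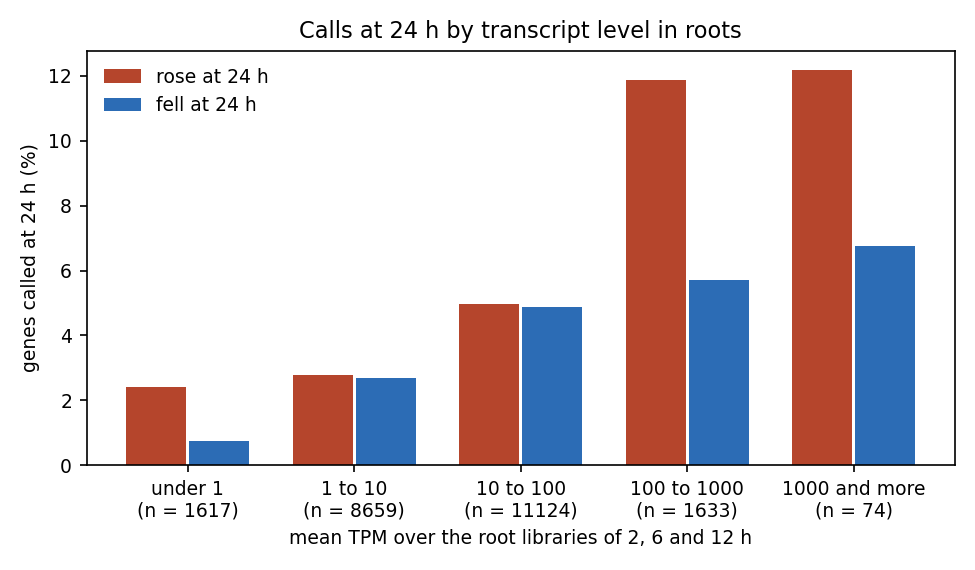
Bars give the percentage of tested root genes that rose or fell at 24 h, by class of mean TPM over the root libraries of 2, 6 and 12 h; the number of genes is under each class. The share that rose was 2.41% in the lowest class, 11.9% at 100 to 1000 TPM and 12.2% in the 74 genes at 1000 TPM or more.

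The first gene described singly had the largest rise of the 859 that were called without overlap and reached a mean of 10 TPM. Glyur005775s00047864 stood at 1.59, 7.24 and 5.02 TPM in control libraries 31, 32 and 33 and at 997, 502 and 399 TPM in libraries 10, 11 and 12 of 24 h. All 3 treated libraries were far above all controls. The means were 4.62 ± 2.85 TPM and 633 ± 320 TPM (SD, n = 3), a change of 6.86 on the log2 scale (SE 0.79, limma adjusted p = 0.000334). Every library of the earlier times was also above every control, with a mean of 90.4 ± 58.8 TPM after 2 h, 113 ± 79.5 TPM after 6 h and 233 ± 203 TPM after 12 h (SD, n = 3). Its differences at 24 h from 12 h (1.67) and from 6 h (2.79) did not pass the test (limma adjusted p = 0.429 and 0.0693). Shoots had 11.9 ± 8.91 TPM as controls and 13.2 ± 6.79 TPM after 24 h (SD, n = 3), overlapping groups. The log2 change in roots exceeded that in shoots by 6.45 (SE 1.30, limma adjusted p = 0.00403).

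Glyur000035s00005005 had the highest level at 24 h among genes that rose at least 2-fold. It was at 417, 335 and 947 TPM in control libraries 31, 32 and 33 and at 1815, 2917 and 2310.5 TPM in libraries 10, 11 and 12. The groups did not overlap, although control library 33 was more than double the other controls. The means were 566 ± 333 TPM and 2347 ± 552 TPM (SD, n = 3), a change of 2.18 on the log2 scale (SE 0.39, limma adjusted p = 0.00450). The call was lost with the 6 libraries alone (adjusted p = 0.0641); over all alternatives the adjusted p ran from 0.000638 to 0.0641. Root means were 1331 ± 548 TPM after 2 h, 1271 ± 2.36 TPM after 6 h and 683 ± 179 TPM after 12 h (SD, n = 3), and the libraries of 12 h overlapped the controls. The shoot change of 2.35 (SE 0.99) did not pass the test (adjusted p = 0.133), nor did the difference between organs, -0.18 (SE 1.12, adjusted p = 0.960).

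Glyur000027s00001583 had the largest fall of the 744 genes that met the same conditions downwards. It was at 513, 457 and 165 TPM in control libraries 31, 32 and 33 and at 1.12, 0.760 and 7.02 TPM in libraries 10, 11 and 12 of 24 h. All 3 controls were far above all 3 treated libraries, and the lowest of each group was library 33 and library 11. The change was -6.77 on the log2 scale (SE 0.75, limma adjusted p = 0.000272). Between these times its level did not fall steadily. Root means were 11.3 ± 8.74 TPM after 2 h, 446 ± 117 TPM after 6 h and 41.4 ± 7.08 TPM after 12 h (SD, n = 3). Roots at 2 h were lower than at 6 h by -5.64 (SE 0.75, adjusted p = 0.000728), a difference of levels in which neither the controls nor the 24 h libraries enter, although they share in its SE. Shoots too were low at both ends of the treatment, with means of 2.13 ± 0.895 TPM after 2 h and 3.28 ± 1.42 TPM after 24 h, against 761 ± 259 TPM in their controls (SD, n = 3). Between those times shoots had 1313 ± 275 TPM after 6 h and 651 ± 84.6 TPM after 12 h. The difference between the organs at 24 h, 0.70, did not pass the test (limma adjusted p = 0.720).

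Glyur001069s00022473 had the highest control level among genes that fell at least 2-fold. It stood at 11814, 12983 and 10936 TPM in control libraries 31, 32 and 33, and at 2183, 1749 and 2937 TPM in libraries 10, 11 and 12. The groups lay wide apart with little spread. The change was -2.41 on the log2 scale (SE 0.36, limma adjusted p = 0.00163). The call was lost without a filter on low values (adjusted p = 0.0522) and with the 6 libraries alone (0.0753); over all alternatives the adjusted p ran from 0.000161 to 0.0753. This gene too was low after 2 h, with a mean of 2107 ± 512 TPM, and high after 6 h, with 12774 ± 1518 TPM, and it lay between these after 12 h, with 6466 ± 1036 TPM (SD, n = 3). Control shoots had 7898 ± 916 TPM and those of 24 h had 318 ± 112 TPM (SD, n = 3), a log2 change of -4.69 (SE 0.37, adjusted p = 4.69e-06), and the fall in roots was smaller by 2.29 on the log2 scale (SE 0.51, adjusted p = 0.00875).

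**Figure D3:**
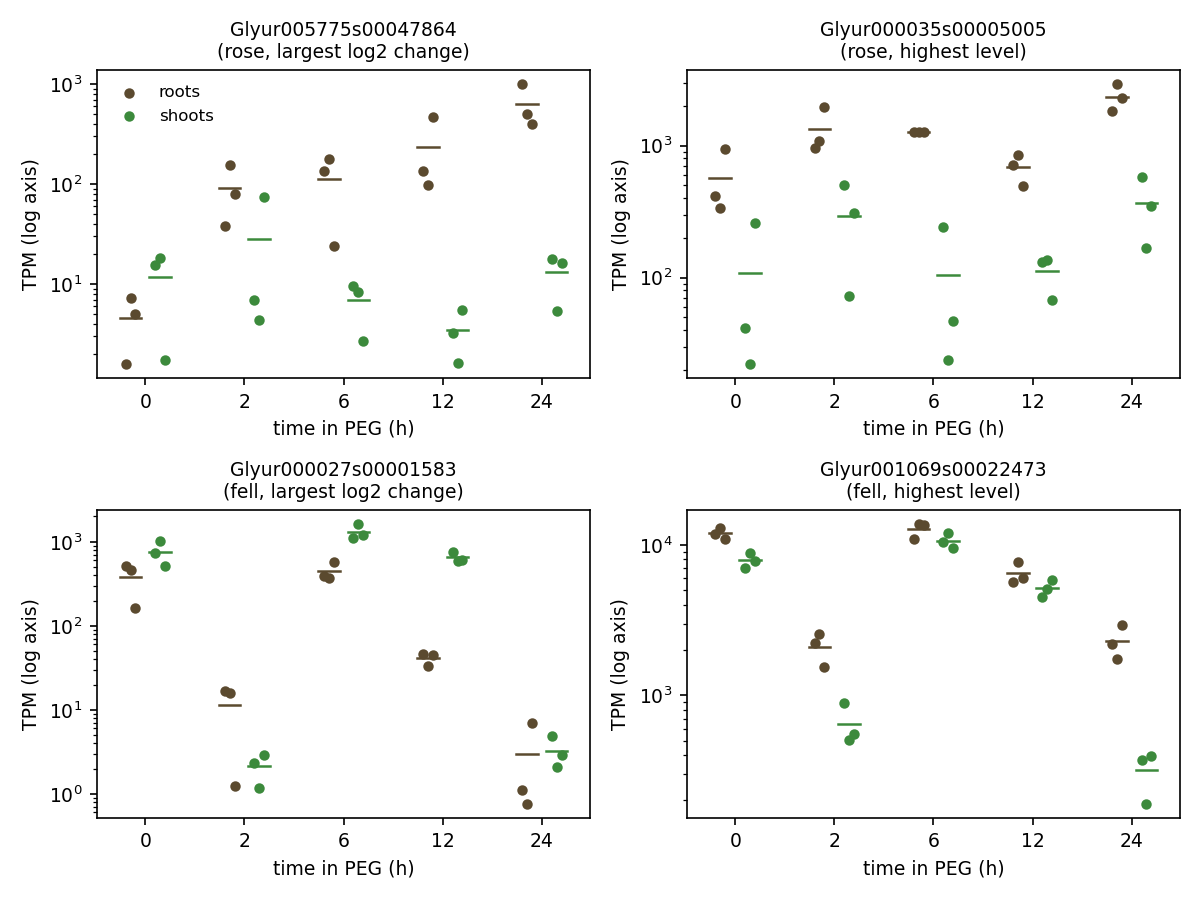
TPM on a log axis is plotted against time in PEG for the 4 genes in every root and shoot library; each point is a library and each line a group mean. Both genes that fell were low at 2 h and 24 h and high at 0 h and 6 h in both organs, while Glyur005775s00047864 was above its root controls at every time.

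The same order of times appeared in many of the genes called at 24 h. The levels at 2, 6 and 12 h do not enter the 24 h change, but those libraries share the estimate of the spread and the filter with it, so they bore on which genes passed. The 887 genes that fell at 24 h had a median log2(TPM + 1) of 3.82 to 4.12 in the libraries of 2 h, 4.78 to 4.94 in those of 6 h and 4.36 to 4.44 in those of 12 h. Their medians were 4.95 to 5.14 in the control libraries and 3.59 to 3.77 in those of 24 h, a direction that the choice of genes fixes. The ranges of 2, 6 and 12 h did not overlap. The 1037 genes that rose had medians of 4.82 to 5.24 after 2 h, 4.34 to 4.69 after 6 h and 4.87 to 4.94 after 12 h, beside 3.73 to 4.03 in control roots and 5.24 to 5.48 after 24 h. For these genes 6 h was the lowest of the 3 times, and 2 h and 12 h overlapped.

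**Figure D4:**
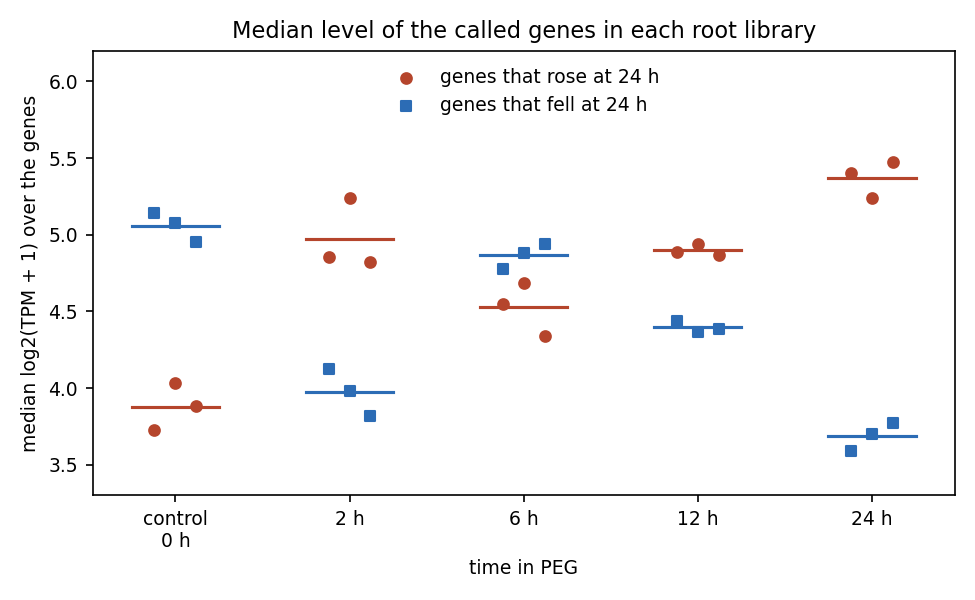
The median log2(TPM + 1) over the 1037 genes that rose (circles) and the 887 that fell (squares) at 24 h is shown for each of the 15 root libraries, by time in PEG; lines are means of 3 libraries. The direction of each set's change from 0 h to 24 h follows from how it was chosen. At 2 h and 12 h the genes that rose were the higher set and at 6 h the lower.

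Set against single genes, the direction of the 24 h change often matched the difference between 2 h and 6 h in roots. Of all 23107 genes, 3.07% were higher and 4.91% lower at 2 h than at 6 h by the same test. Of the 887 genes that fell at 24 h, 366 (41.3%) were lower and 10 higher at 2 h than at 6 h; of the 1037 that rose, 209 (20.2%) were higher and 8 lower. Seen from the other side, the 366 genes were 32.2% of the 1135 lower at 2 h, and the 209 were 29.5% of the 709 higher at 2 h. Without regard to the test, 89.4% of the genes that fell had a lower mean at 2 h than at 6 h, and 70.7% of those that rose a higher mean, when 39.0% of all tested genes had a higher mean at 2 h. Across genes, which are not independent replicates and share the 15 libraries of the fit, the 24 h change and the difference of 2 h from 6 h had a Pearson's r of 0.348 (n = 23107), given as a description. The counts fell whichever of their libraries was left out. The 366 became 206 without library 6 of 6 h, and the 209 became 123, 138 and 134 without library 6 or 4 of 6 h or control library 31. The 1844 calls between 2 h and 6 h became 765, 1003 and 953 without library 6 or 4 of 6 h or library 3 of 2 h. With each comparison fitted and filtered on its own 6 libraries, 90.13% of the falls had a lower mean at 2 h and 71.3% of the rises a higher one. The shares ran from 85.2% to 91.5% of falls and from 62.6% to 77.6% of rises over all alternatives.

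The complete order of the 3 middle times was also counted. For 529 of the 887 falls (59.6%) the mean was lowest at 2 h, then 12 h, then highest at 6 h, an order held by 25.2% of all tested genes. The opposite order, highest at 2 h and lowest at 6 h, was held by 369 of the 1037 rises (35.6%) and by 14.2% of all genes. The rises divided between 499 genes highest at 2 h and 475 highest at 12 h, with 63 highest at 6 h.

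Within PEG treatment, fewer root genes differed between 24 h and 12 h than between 24 h and 6 h. Against 12 h, 81 genes were higher and 81 lower at 24 h, 0.351% of those tested each way, and 61 of the former were among the 1037 rises and 74 of the latter among the 887 falls. Against 6 h, 386 genes were higher and 591 lower (1.67% and 2.56%), 275 and 403 of them among the rises and falls. These comparisons share the 24 h libraries with that against control, so the shared genes are a description only. The difference between the 2 counts was not tested. The 162 calls against 12 h became 67, 86 and 86 without library 7, 8 or 9 of 12 h, 82 without library 10 and 300 without library 12 of 24 h. The 977 calls against 6 h became 285, 439 and 525 without library 6, 4 or 5 of 6 h, and 395 and 584 without library 10 or 11 of 24 h.

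The genes with the largest changes were also followed through the other times. They were chosen for their levels in the control and 24 h libraries, so part of any gap between other times and control follows from the choice, and the levels are a description. The 101 genes that rose at least 8-fold had a median level of 2.78, 5.37 and 3.12 TPM in control libraries 31, 32 and 33 and of 133, 60.0 and 104 TPM in libraries 10, 11 and 12. Between these times their median stood at 23.7 to 61.5 TPM after 2 h, 10.2 to 25.6 TPM after 6 h and 41.5 to 52.7 TPM after 12 h, above every control library. The 58 genes that fell at least 8-fold had medians of 82.7, 65.2 and 57.4 TPM in the controls and 2.48, 2.12 and 6.33 TPM at 24 h. They stood at 7.56 to 10.4 TPM after 2 h, 46.9 to 54.8 TPM after 6 h and 16.3 to 20.0 TPM after 12 h, each below every control library. At 6 h the strongly falling genes lay just under the lowest control, and of the strongly rising ones the lowest library of 6 h was nearly double the highest control. Of the 101 rises, 81 had a higher mean at 2 h than at 6 h and 31 passed that test; of the 58 falls, 46 had a lower mean and 31 passed. Over all tested genes, 39.0% had a higher mean at 2 h, and 3.07% passed as higher and 4.91% as lower. No test was made of these sets against the smaller changes.

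Genes that differ between the organs were taken from the libraries of 6 h, whose levels do not enter the 24 h change. Of 787 root-biased genes, at least 8-fold higher in roots than in shoots on the log2(TPM + 1) scale, 86 rose (10.9%) and 39 fell (4.96%) at 24 h. Of the 757 shoot-biased genes, 30 rose (3.96%) and 50 fell (6.61%), and of the remaining 21563 genes 4.27% rose and 3.70% fell. Among the 101 rises of at least 8-fold, 31 were root-biased and 1 shoot-biased. Among the 58 falls of at least 8-fold, 5 were root-biased and 9 shoot-biased. All 23107 tested genes held 787 root-biased and 757 shoot-biased ones. The bias was measured after 6 h in PEG, so it is that of treated roots and shoots. An early rise in roots can itself make a gene root-biased. At 6 h the 101 genes had medians of 10.2 to 25.6 TPM in roots and 1.93 to 3.10 TPM in shoots. In the controls the medians were 2.78 to 5.37 TPM in roots and 2.23 to 2.71 TPM in shoots. The summed level of the shoot-biased genes was 7253 to 8731 TPM in the control roots and 6069 to 6258 TPM in those of 24 h, with no overlap, and its part in their falls was not tested. The 30 rises became 19 and 18 without library 10 or 12 of 24 h, and the 50 falls 31 and 28 without library 10 or control library 31.

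Shoots were sampled from the same treatment but have their own libraries and controls. Same-numbered libraries of the organs deviated from their group means together, with correlations of 0.0973 to 0.345 over 15 pairs. The part of this in the shared calls was not tested. Among the 21662 genes tested in both organs, 5.90% rose and 9.36% fell in shoots at 24 h. Of the 973 root rises tested there, 210 (21.6%) also rose in shoots, and of the 865 root falls 321 (37.1%) also fell. They make up 16.4% of the shoot rises and 15.8% of the shoot falls. Root and shoot changes had a Pearson's r of 0.378 across the 21662 genes, a description, since genes are not replicates and libraries of the organs share numbers. The 321 became 212 when root library 10 was left out, 195 with root control 31 left out and 207 with root control 32 left out, and the 210 became 114 without control library 31 of roots; the 3505 shoot calls became 2224 without control library 31 of shoots.

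**Figure D5:**
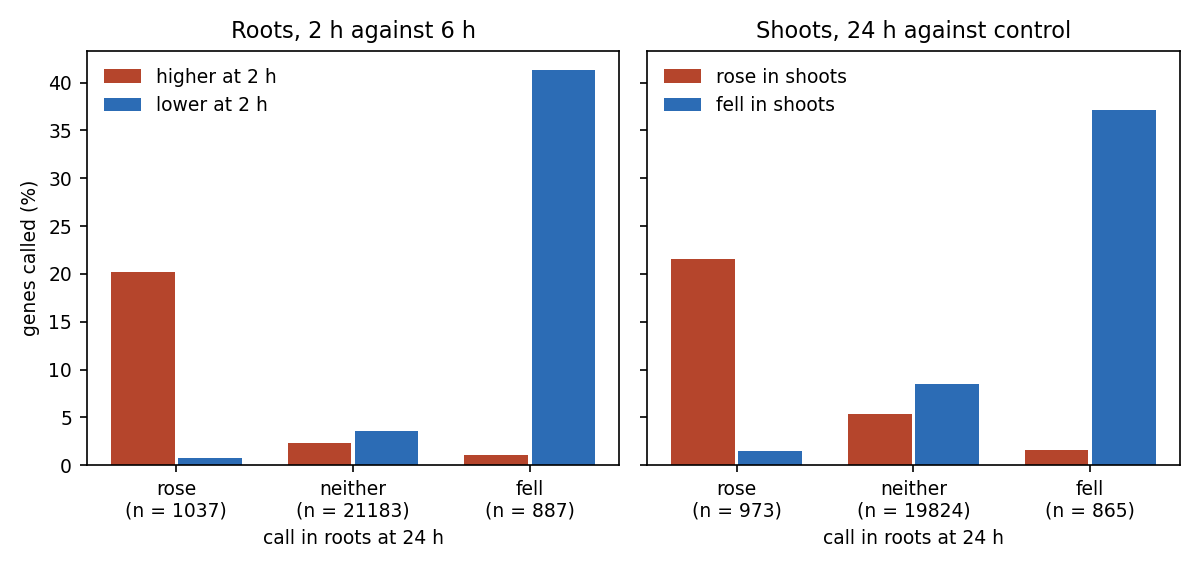
Bars give the percentage of genes called higher or lower at 2 h than at 6 h in roots (left) and at 24 h against control in shoots (right), by the call of the gene in roots at 24 h; n is the number of genes tested in both. Genes that fell in roots at 24 h were lower at 2 h in 41.3% of cases and fell in shoots in 37.1%.

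The difference between the organs was tested as the root change minus the shoot change over all 30 libraries. This fit held no term for library number, though same-numbered libraries of the organs deviated together. With the number as a block only the total of calls was recomputed, not the counts given here. Among the 23107 genes, 3.89% changed more positively in roots and 2.25% more negatively. The root change that chose the called genes is a term of this difference, so they are pushed towards passing, more so the larger the change, and their counts are a description not to be read against these shares. Of the 1037 root rises, 241 (23.2%) passed as more positive in roots, of which 190 were not called in shoots and 32 were too low in shoots to be tested there. Another 27 rises were smaller in roots than in shoots. Of the 887 root falls, 120 (13.5%) passed as more negative in roots, 95 of them not called in shoots, and 47 were smaller than in shoots. Among the 101 rises of at least 8-fold, 57 passed as larger in roots, and among the 58 such falls 19 did. The 241 became 137 without library 11 of 24 h of shoots and 141 without control library 31 of roots. The 120 became 68 without library 10 of roots, 70 and 75 without control library 31 or 32 of roots and 78 without control library 31 of shoots, and came to 198 with either rescaling and 202 with library weights. With median-ratio rescaling the rises that passed were 186, fewer than the 198 falls, while quantile normalization gave 242 rises and library weights 261. For most genes called in roots, a difference from shoots did not pass the test, which does not show that the organs responded alike.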

How the data were processed

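RNA of *G. uralensis* seedlings was sequenced in 30 libraries, 10 groups of 3; groups came from the sample descriptions. The authors deposited a table per library with TPM of 34445 genes, to 2 decimals. Per the submitters' processing notes, the tools included DESeq2, edgeR, RSEM, StringTie, HISAT2 and fastp, with no version or role given; the genome build is not given in the sources used here. TPM keeps no read depth, so no counting interval can be given. No 2 libraries held identical values.

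From the deposited TPM, log2(TPM + 1) was tested in R 4.3.3 with limma 3.58.1 (moderated by empirical Bayes with a trend, 2-sided, Benjamini-Hochberg adjusted, threshold 0.05). A gene entered a fit where 3 or more of its libraries had 1 TPM. Within an organ all 15 libraries shared an estimate of the spread; the difference between organs used all 30. Named genes are, in each direction, that with the largest change and that with the highest level (at 24 h for rises, in control for falls; change at least 2-fold), among calls without overlap whose higher group averaged 10 TPM or more. Gene lists by function could not be applied. The comparison, groups of genes and rules were chosen with earlier results of these data known. The comparison with 6 h and the counts by the difference of 2 h from 6 h were added after the data were seen. The fits were tested on simulated data with independent normal noise of the same spread in every group. These data differ from that, so the simulation gives no rate of false calls for them. Alternatives were no filter, at least 5 TPM, pseudocount 0.1, quantile normalization, median-ratio rescaling, no trend, library weights, only the libraries compared, other limits for the gene groups, each library left out, and a block for the library number. Figures used matplotlib 3.10.9. Splicing was not analysed here.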

Additional observations from a re-analysis of the deposited data

Results flagged for a closer look

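At 24 h, 1528 of 25420 genes changed differently in roots and shoots by limma's test of the difference (adjusted p under 0.05); the number was 918 without library 11 of shoots and 1000 without control library 31 of shoots. These genes include Glyur005775s00047864, whose log2 change in roots exceeded that in shoots by 6.45, higher in 3 of 3 root libraries than in any control root library. They also include Glyur001069s00022473, whose fall was smaller in roots by 2.29 on the log2 scale, with lower values than control in 3 of 3 libraries of both organs.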

How the results depend on the processing

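Roots at 24 h and control roots share no library number, so no block was possible there. Roots and shoots share numbers at each time. Deviations of same-numbered libraries from their group means had correlations of 0.0973 to 0.345 over 15 pairs, 14 of them over 0.1. Each of the 15 root libraries was set against the 3 shoot libraries of its own time only, and correlated best with its own number. The labels do not say what a number marks. With the number as a replicate block, 1694 genes differed in response between organs in place of 1528, and 1311 of them had a call of like direction without it. The counts of root rises and falls exceeding those in shoots were not recomputed with the block. Nor were the differences between organs of the named genes.

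None of the 4 named genes changed direction. The balance of calls did turn: rises and falls were 1087 and 1143 after quantile normalization and 1352 and 1382 with library weights, and those exceeding shoots were 186 and 198 after median-ratio rescaling. Of the 4 named genes, 2 lost their call under the settings given with them; the cause was not tested. Fitting only the libraries compared leaves fewer libraries for the spread. It called 545 root genes at 24 h (314 rises and 231 falls, 307 and 226 of at least 2-fold). Of these, 66 rises and 34 falls were at 100 TPM or more, 45 rises and 11 falls were root-biased, and 11 rises and 23 falls shoot-biased. It left 62 rises and 81 falls shared with shoots, 66 rises higher and 106 falls lower at 2 h than at 6 h, and 59 rises and 27 falls exceeding those in shoots. It called 1610 genes in shoots, 435 for the difference between organs, 46 against 12 h and 506 against 6 h.

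Library weights gave 1382 falls, 629 falls lower and 328 rises higher at 2 h than at 6 h, 202 falls exceeding those in shoots, and 3598, 276 and 2243 calls for 2 h against 6 h, 24 h against 12 h and 24 h against 6 h. Quantile normalization and median-ratio rescaling each gave 198 falls exceeding those in shoots. With an organ bias of 4-fold, 169 root-biased genes rose and 95 fell, and 60 shoot-biased genes rose and 132 fell. With the bias taken at 12 h, 25 root-biased genes fell and 18 shoot-biased genes rose.

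Leaving out each library in turn gave 1028 to 1587 root calls at 24 h, with 535 to 829 rises and 493 to 772 falls, of which 423 to 679 and 394 to 595 were at least 2-fold. At 100 TPM or more there were 134 to 178 rises and 61 to 100 falls, and among shoot-biased genes 18 to 33 rises and 28 to 45 falls. Shared with shoots were 114 to 198 rises and 195 to 323 falls, and exceeding those in shoots were 137 to 303 rises and 68 to 118 falls. Between 206 and 325 falls were lower, and 123 to 194 rises higher, at 2 h than at 6 h. Calls ran from 2224 to 3361 in shoots, 918 to 1895 for the difference between organs, 765 to 1572 for 2 h against 6 h, 67 to 300 for 24 h against 12 h, and 285 to 1375 for 24 h against 6 h. The other recomputed counts stayed within 1.5 times the reported count. Counts of changes of at least 4-fold and 8-fold, of orders of times, of genes listed at 0 and of genes shared with the comparisons against 12 h and 6 h were not recomputed. TPM keeps no depth, so how far depth limits low genes is unknown.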
